A study of Mus musculus with 6 samples.

Results

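Glycolysis was followed at its controlled and abundant steps through 10 gene symbols: the hexokinases Hk1 and Hk2, the phosphofructokinase subunits Pfkm, Pfkl and Pfkp, aldolase A (Aldoa), pyruvate kinase (Pkm), lactate dehydrogenase A (Ldha), and the enolases Eno1 and Eno3. They were chosen by symbol and gave 11 of the 14515 genes in the deposited table, because Aldoa has 2 identifiers, which were kept apart. All 11 passed the filter on low values and were tested. The data are 6 RNA-seq libraries of mouse muscle stem cells, 2 labelled wild type (wt), 2 labelled mdx and 2 labelled mdx/Ripk3mKO. The mdx mouse lacks dystrophin through a mutation and models Duchenne muscular dystrophy, Ripk3 is a kinase of necroptotic cell death, and neither the meaning of mKO, its promoter nor the age of the animals is given in the labels. The mdx change is shared by the mdx and mdx/Ripk3mKO groups. Per the labels, between 10000 and 20000 sorted cells went into each library. Separate animals or cultures are not stated for the libraries sharing a label, so the p-values reflect library-to-library spread that may be technical. The mdx/Ripk3mKO libraries differed in sex-linked RNA, as given below, so these libraries are not plain repeats of the same cells.

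The sources describe the cells differently. The sample labels call them quiescent satellite cells, whereas in the series text they are activated cells of wild-type origin, taken after 72 hours of culture below a transwell that held cells of the 3 genotypes. By the series text, then, the labelled genotype would belong to the cells in the transwell. Group names below are those of the labels. All libraries held markers of dividing and of differentiating muscle cells, with Mki67 at 13883 to 16904 scaled counts, myogenin (Myog) at 26795 to 35263 and the satellite cell factor Pax7 at 1755 to 2119. The differentiation markers Myh3 and Acta1 lay at 110791 to 164134 and 65741 to 85379, so no library held quiescent cells alone. These markers do not tell whose genotype the labels give. Of the 8 satellite cell markers, Calcr was not listed. Ripk3 lay at 45 and 32 scaled counts in wt libraries, 23 and 36 in mdx libraries and 17 and 33 in mdx/Ripk3mKO libraries, so its groups overlapped and it does not check the labels. Dystrophin (Dmd) message lay at 324 and 432 in wt, at 531 and 692 in mdx, and at 474 and 294 in mdx/Ripk3mKO, so the mdx libraries were the highest and this gene total does not mark the mdx label as a loss either. Library 1 of mdx/Ripk3mKO stood apart in sex-linked RNA, with 6918 scaled counts of Xist against 164 to 666 in the other libraries. Of Y-linked genes, Ddx3y lay at 373 there against 1543 to 1785, and Eif2s3y at 374 against 1377 to 1551. The libraries of this label thus differed, at least in part, in the sex of their cells. What this adds to the values of the group was not tested. Results that omission of mdx/Ripk3mKO library 1 changes are given with and without it. Endothelial, fibro-adipogenic and macrophage markers summed to 15 to 70 scaled counts per list and library, 3 of 4 macrophage markers (Ptprc, Adgre1, Csf1r) and 2 of 4 fibro-adipogenic ones (Dcn, Dpt) were not listed, and the erythroid list had 0 of 5 genes in the table. The pericyte and smooth muscle list summed to 36445 to 52391 scaled counts, nearly all of it Acta2, with Pdgfrb at 248 to 444 and Rgs5 at 11 to 27, and Myh11 was not listed. Values are read counts that were scaled between libraries and rounded, called scaled counts here, and their totals were 20611974 to 21037153 per library. The scaling hides the sequencing depth. Divisors estimated from skipped and doubled whole numbers were 0.87 to 0.954 in wt and mdx and 1.205 and 1.206 in mdx/Ripk3mKO, so the deepest libraries were those of 1 group, and depth and that label cannot be told apart.

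Glycolysis splits glucose to pyruvate in the cytosol. Hexokinase traps glucose as glucose 6-phosphate, phosphofructokinase makes the committed step, aldolase cleaves the 6-carbon sugar, enolase and pyruvate kinase act near the end, and lactate dehydrogenase recycles NADH by turning pyruvate into lactate. Most steps have isoforms: Hk1 is widespread and Hk2 is the insulin-responsive hexokinase of muscle and fat, Pfkm and Eno3 are the muscle isoforms, Eno1 is the ubiquitous enolase, and Pfkl and Pfkp are named for liver and platelets. Pkm encodes both PKM1 and PKM2 by exclusive splicing, and a gene total cannot separate them.

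The promoters below belong to the isoform pairs that the results turn on: the hexokinases, whose balance differed most clearly between the groups, and the enolases, whose balance differed little. RefSeq windows of 250 bases before to 50 after a start (build GRCm38.p6, the mm10 build of the files) were found for 10 of 10 symbols, in 20 windows. They were searched on both strands for ACGTG, and for its variant GCGTG (both are forms of the hypoxia response element core), for the palindrome CACGTG, the E-box bound by Myc and Max, which contains ACGTG on both strands, and for CAGCTG, an E-box form bound by myogenic factors. Capitals mark a match of any of these motifs on either strand, and all sequences read 5′ to 3′ on the strand of the gene. The windows are chr10:62340372-62340671 (minus strand) for Hk1, chr6:82774405-82774704 (minus strand) for Hk2, chr4:150236947-150237246 (plus strand) for Eno1 and chr11:70656926-70657225 (plus strand) for Eno3. Hk1 has 1 further window, at the outermost start (chr10:62379859-62380158), which held 0 matches of these motifs, and Eno1 has 2, with 2 matches of GCGTG in each. These further windows are not printed as such. The Eno1 window chr4:150236974-150237273 overlaps the printed one, and its 2 matches are the same bases as those printed.
Hk1: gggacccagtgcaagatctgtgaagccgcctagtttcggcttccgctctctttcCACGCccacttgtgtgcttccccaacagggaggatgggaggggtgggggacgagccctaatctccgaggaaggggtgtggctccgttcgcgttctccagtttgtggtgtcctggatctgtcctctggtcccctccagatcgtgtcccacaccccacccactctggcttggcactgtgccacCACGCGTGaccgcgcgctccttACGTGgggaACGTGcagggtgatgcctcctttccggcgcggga
Hk2: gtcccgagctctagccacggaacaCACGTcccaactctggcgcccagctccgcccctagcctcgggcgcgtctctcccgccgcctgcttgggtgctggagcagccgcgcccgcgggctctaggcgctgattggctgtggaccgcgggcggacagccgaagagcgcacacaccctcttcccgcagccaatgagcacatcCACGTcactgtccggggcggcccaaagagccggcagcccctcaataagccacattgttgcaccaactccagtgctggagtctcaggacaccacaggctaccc
Eno1: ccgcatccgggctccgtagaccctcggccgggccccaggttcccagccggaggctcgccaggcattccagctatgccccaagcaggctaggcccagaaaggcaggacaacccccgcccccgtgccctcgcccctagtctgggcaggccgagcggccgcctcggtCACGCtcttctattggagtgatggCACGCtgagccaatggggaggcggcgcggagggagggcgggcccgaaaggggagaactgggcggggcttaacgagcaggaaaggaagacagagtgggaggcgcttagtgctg
Eno3: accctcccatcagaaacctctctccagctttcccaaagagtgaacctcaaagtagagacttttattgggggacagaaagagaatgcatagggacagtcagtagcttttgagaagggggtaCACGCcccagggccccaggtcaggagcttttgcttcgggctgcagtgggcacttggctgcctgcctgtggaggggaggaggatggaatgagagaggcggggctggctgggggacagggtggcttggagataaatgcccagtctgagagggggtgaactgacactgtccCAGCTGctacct
The Hk1 window held 2 matches of ACGTG and 3 of GCGTG, and the Hk2 window 2 of ACGTG and 0 of GCGTG. The Eno1 window held 2 of GCGTG, and the Eno3 window 1 of GCGTG and 1 of CAGCTG, the latter in 16.3% of all 32851 windows. ACGTG was found in 19.6% and GCGTG in 32.4% of all windows. CACGTG, in 7.2% of all windows, was in none of the 4 printed here, while 1 Ldha window held 2 copies of it and 1 Pfkm window held 1. GC content was 63.3% for Hk1, 67.3% for Hk2, 69.0% for Eno1 and 57.0% for Eno3 in these windows, against a median of 52.7% over all windows. These matches describe letters only.

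The levels spanned more than 2 orders of magnitude between members, with much message for the late and cleavage steps and little for the kinases of the upper pathway. Compared per kilobase of the principal transcript, Aldoa (ENSMUSG00000030695) was highest at 24000 ± 1240 scaled counts per kb (SD, n = 6 libraries), followed by Pkm at 22600 ± 1190. These neighbours overlapped across libraries. Ldha lay at 11800 ± 486 scaled counts per kb, below both in every library. Eno3 (8610 ± 443) and Eno1 (7930 ± 397) overlapped as well, so message of the muscle enolase and of the ubiquitous enolase was about equally abundant in these cells. Over whole exon unions in place of the principal transcript, Eno3 was at 7740 and Eno1 at 2990 scaled counts per kb, so their balance depends on the length used. Ldha was at 6290 over its exon union, below Eno3, so the order of these genes depends on the length too. Eno3 made up 51.1% to 53.4% of the summed enolase level per length of the principal transcripts.

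The phosphofructokinases and hexokinases were an order of magnitude lower. Pfkm stood at 806 ± 148 scaled counts per kb and Hk1 at 741 ± 57.8, and the libraries overlapped. Pfkp followed at 446 ± 27.2 and Pfkl at 359 ± 14.7, which did not overlap with each other. Hk2 was lowest of the main genes at 155 ± 16.4 scaled counts per kb. Over exon unions Pfkm was at 695 and Hk1 at 335 scaled counts per kb, and Pfkp (138) instead lay below Pfkl (201) and Hk2 (143). By principal transcripts, and so dependent on that choice of length, Hk1 made up 79.0% to 85.0% of the hexokinase level and Pfkm 45.1% to 54.7% of that of the 3 phosphofructokinases, so all 3 subunits were present together. The other Aldoa identifier (ENSMUSG00000114515, chromosome 7, 126800881 to 126808875) lay at 7 to 16 scaled counts, next to the main gene (126795234 to 126800447), and carried next to none of the aldolase signal.

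**Figure D1:**
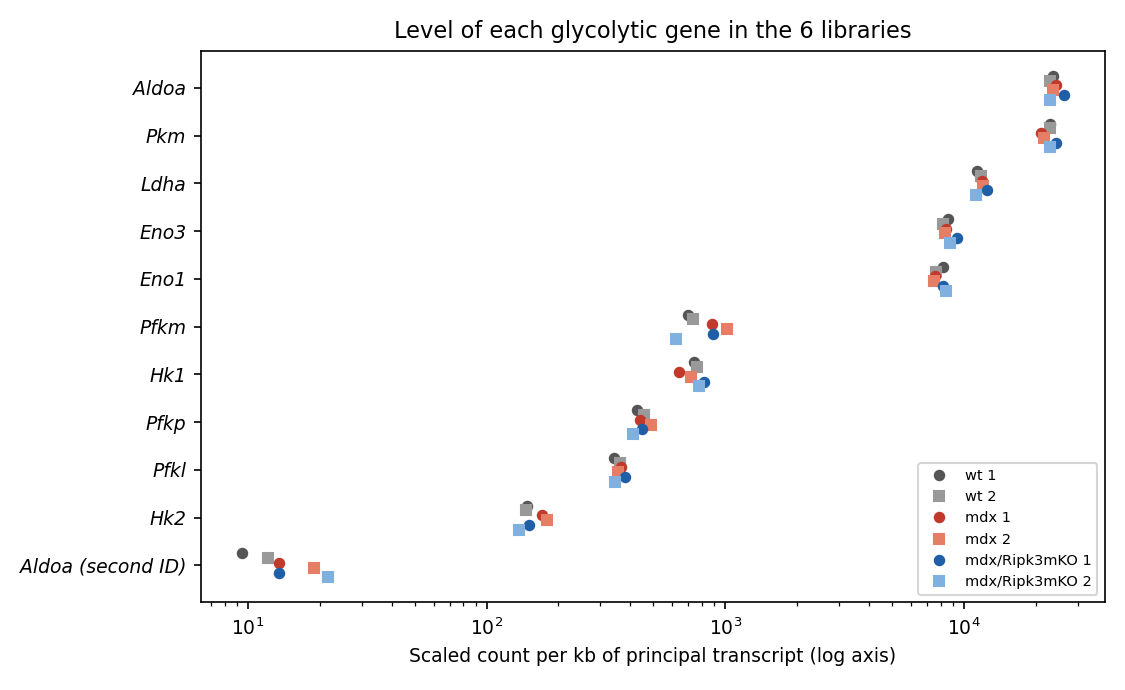
Scaled count per kb of principal transcript (log axis) for the 11 rows, with 1 point per library and genes ordered by mean. Aldoa and Pkm lie near 24000 and 22600, Eno3 and Eno1 at 8610 and 7930, and Hk2 at 155.

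Across the 6 libraries most members were steady. The highest library was 1.12 times the lowest for Pfkl and for Ldha, 1.13 times for Eno1, 1.15 times for Aldoa and for Eno3, 1.16 times for Pkm and 1.19 times for Pfkp. It was 1.26 times for Hk1, 1.32 times for Hk2 and 1.64 times for Pfkm. The SD of log2 scaled count over the 6 libraries was 0.265 for Pfkm, which put it at percentile 80.5 of all tested genes, and 0.0588 for Pfkl, at percentile 20.6. The muscle phosphofructokinase was thus the most variable main member and the liver-type subunit the least.

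**Figure D2:**
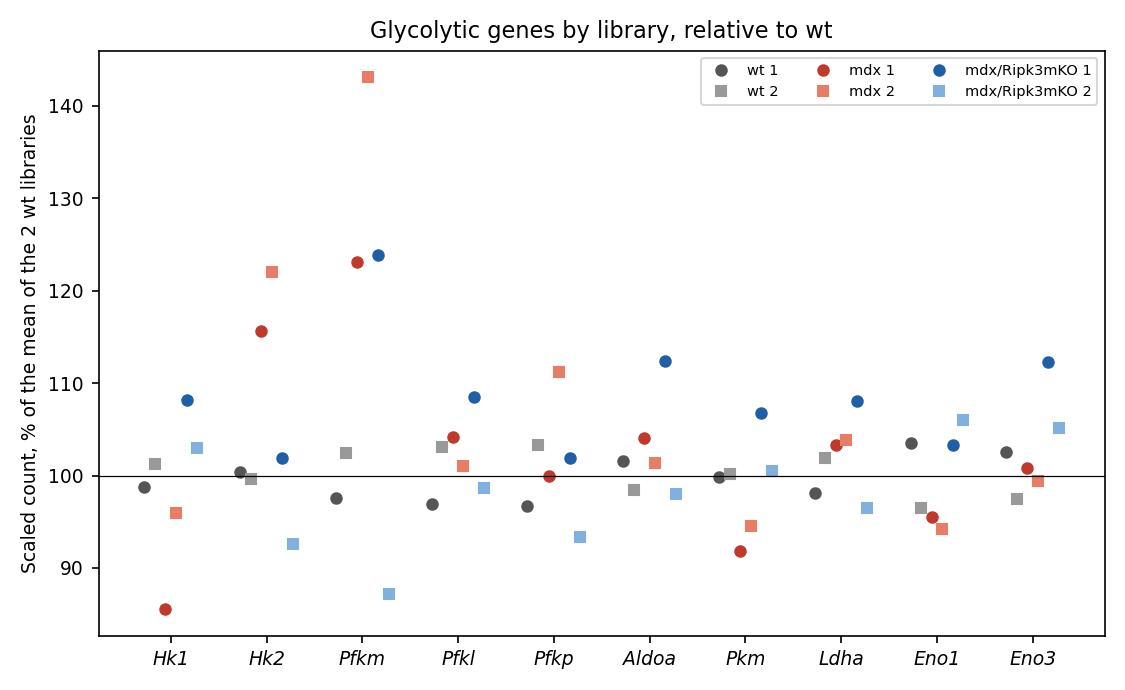
Scaled count of each main member in each library as a percentage of the mean of the wt libraries (axis does not start at 0), with 1 point per library. Hk2 and Pfkm lie above the wt libraries in both mdx libraries, and Hk1 and Pkm below.

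No member passed the threshold of adjusted p = 0.05 in any comparison (limma over 14077 genes, Benjamini-Hochberg), so the differences below are given as values. The comparisons of mdx with wt and of mdx/Ripk3mKO with mdx share the mdx libraries, so a value high in mdx counts in both. In mdx against wt 0 of 11 members were called, where 0.00710% of all tested genes were, and 3 members (Hk1, Hk2, Pkm) had an unadjusted p under 0.05, where 6.46% of all genes had. The groups did not overlap for 7 of 11 members, against 35.9% of all tested genes. In mdx/Ripk3mKO against mdx 0 of 11 were called, where 0.206% of all genes were. There 5 members (Hk1, Hk2, Pkm, Eno1, Eno3) had an unadjusted p under 0.05, where 11.6% of all genes had, and the groups did not overlap for the same 5, against 41.3% of all genes. In mdx/Ripk3mKO against wt limma called 0 of 11, as it called 0 of all tested genes (0%), and Eno3 alone of the members had an unadjusted p under 0.05, as did 468 of all tested genes (3.32%). The groups did not overlap for 4 of 11 there, against 29.4% of all genes. In an F-test over the 3 labelled genotypes 0 members were called, where 0.0781% of all genes were, and 4 had an unadjusted p under 0.05 (Hk1, Hk2, Pkm, Eno1), where 7.87% of all genes had.

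The median log2 fold change over the 11 rows was 0.04 in mdx against wt, 0.03 in mdx/Ripk3mKO against mdx and 0.06 in mdx/Ripk3mKO against wt. Over all tested genes it was -0.002, -0.002 and 0.001. Fold changes above 0 were seen for 8 of 11 rows in mdx against wt (49.1% of all tested genes), 7 of 11 in mdx/Ripk3mKO against mdx (49.2%) and 9 of 11 in mdx/Ripk3mKO against wt (50.6%). The hexokinases Hk1 and Hk2 had values of opposite sign in both comparisons with mdx, as described below. Among the members, the other isoforms did not share this trait throughout. The phosphofructokinases were all above 0 for mdx against wt (Pfkm 0.41, Pfkl 0.04, Pfkp 0.08), and their signs were mixed otherwise. The enolases were both above 0 wherever mdx/Ripk3mKO was compared, with Eno1 at -0.08 and Eno3 at 0.00 for mdx against wt. Outside the members, opposite signs in both comparisons with mdx were also seen for other isoforms. For mdx against wt and mdx/Ripk3mKO against mdx, the phosphoglycerate mutase Pgam2 was at 0.20 ± 0.19 and -0.12 ± 0.19. Pgam1 was at -0.06 ± 0.07 and 0.12 ± 0.07. The lactate carriers Slc16a3 (0.33 and -0.34) and Slc16a1 (-0.16 and 0.12) had the trait too.

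**Figure D3:**
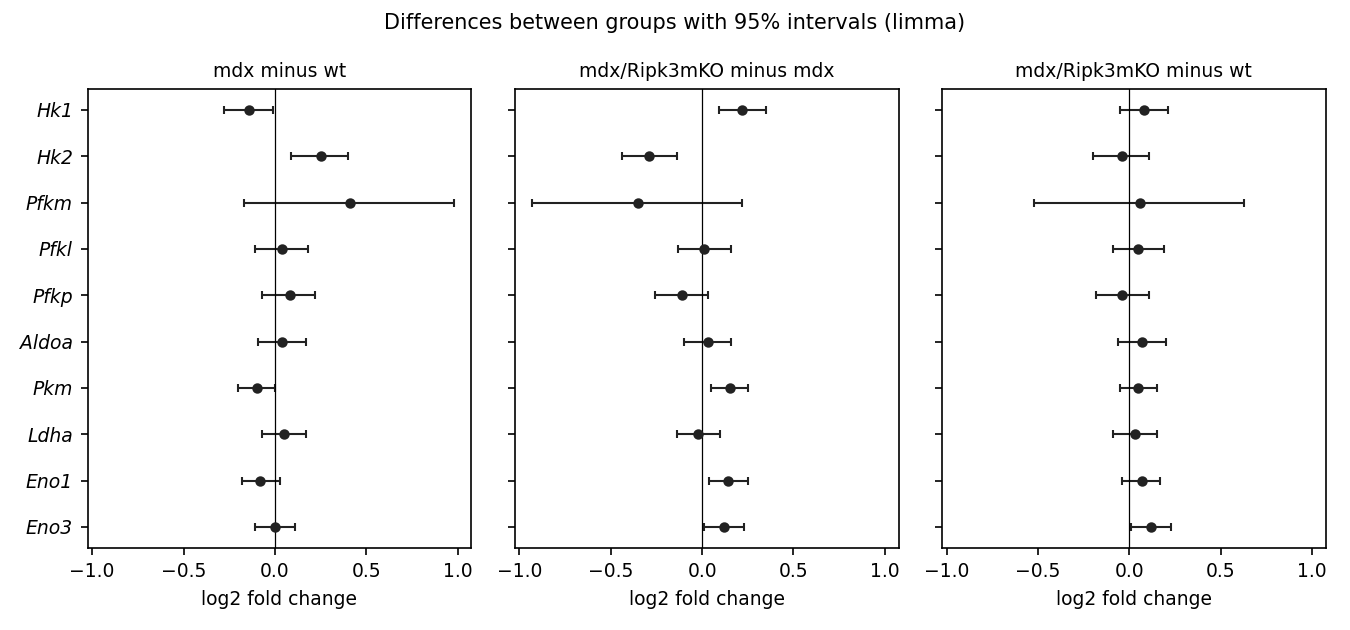
log2 fold change of each main member in the 3 comparisons (limma on log2 of scaled count + 1), with bars for the 95% intervals. Hk2 and Hk1 lie on opposite sides of 0 in both comparisons with mdx, and Pfkm has the widest intervals.

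Among the hexokinases, Hk2 (ENSMUSG00000000628, chromosome 6, 82725025 to 82774454) was at 816 and 810 scaled counts in wt libraries, 940 and 992 in mdx libraries and 828 and 753 in mdx/Ripk3mKO libraries. Both mdx libraries lay above the other 4, and the wt and mdx/Ripk3mKO libraries overlapped. The log2 difference of mdx from wt was 0.25 ± 0.07 (95% interval 0.09 to 0.40, limma, unadjusted p = 0.00376, adjusted p = 0.495, n = 2 and 2). The difference of mdx/Ripk3mKO from mdx was -0.29 ± 0.07 (-0.44 to -0.14, limma, unadjusted p = 0.00117, adjusted p = 0.132). Without mdx/Ripk3mKO library 1, the library with high Xist, Hk2 passed in the latter comparison at -0.36 (limma, adjusted p = 0.0447), and over its other alternatives the adjusted p reached 0.482.

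Hk1 (ENSMUSG00000037012, chromosome 10, 62268855 to 62379908), the widespread hexokinase that binds mitochondria, went the other way. It was at 2854 and 2925 scaled counts in wt libraries, 2472 and 2771 in mdx libraries and 3127 and 2977 in mdx/Ripk3mKO libraries. The mdx libraries were the lowest and the mdx/Ripk3mKO libraries the highest, with no overlap between any groups. The difference was -0.14 ± 0.06 for mdx against wt (-0.28 to -0.01, limma, adjusted p = 0.747) and 0.22 ± 0.06 for mdx/Ripk3mKO against mdx (0.09 to 0.35, adjusted p = 0.179). Mdx library 1 was the lowest of the 6, and without it the differences were -0.06 and 0.14.

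The balance of the hexokinases within a library does not depend on how that library was scaled. The ratio of Hk2 to Hk1 scaled counts was 0.286 and 0.277 in wt libraries, 0.381 and 0.358 in mdx libraries and 0.265 and 0.253 in mdx/Ripk3mKO libraries. No groups overlapped, with mdx highest and mdx/Ripk3mKO lowest. The log2 ratio differed by 0.39 between mdx and wt, by -0.51 between mdx/Ripk3mKO and mdx, and by -0.12 between mdx/Ripk3mKO and wt, where the SD within groups was 0.03 to 0.06. Each pair of groups gave an exact permutation p of 0.333 (two-sided), the smallest that 2 libraries against 2 allow, and 0.5 after adjustment over the 9 ratio comparisons made. Over the 3 groups the exact permutation p was 0.0667, again the smallest possible. Leaving out any 1 library kept each sign, with 0.347 to 0.434 for mdx against wt and -0.555 to -0.468 for mdx/Ripk3mKO against mdx.

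**Figure D4:**
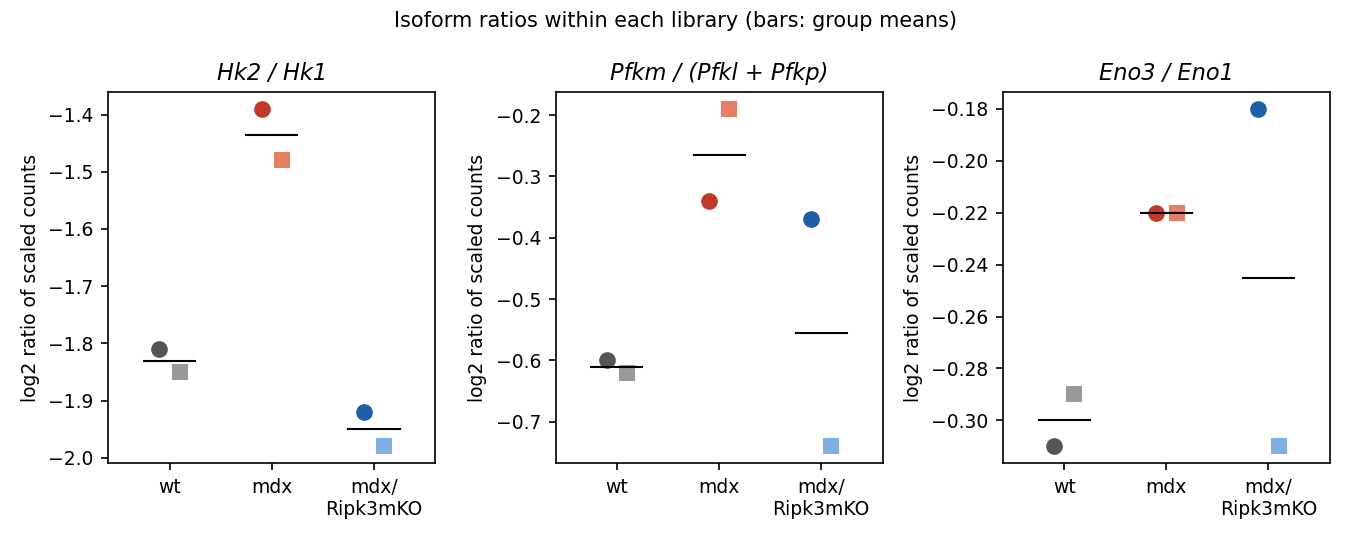
log2 ratio of scaled counts within each library for the hexokinases, phosphofructokinases and enolases, with 1 point per library (wt, mdx and mdx/Ripk3mKO from left to right, library 1 as circle and library 2 as square) and bars for group means. The Hk2 to Hk1 ratio separates all 3 groups. The mdx/Ripk3mKO libraries lie at -0.37 and -0.74 for the phosphofructokinases and at -0.18 and -0.31 for the enolases. Each panel has its own y axis.

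Of the phosphofructokinases, Pfkm (ENSMUSG00000033065, chromosome 15, 98092589 to 98132447), the muscle subunit, was at 2006 and 2108 scaled counts in wt libraries, 2532 and 2943 in mdx libraries and 2547 and 1794 in mdx/Ripk3mKO libraries. Both mdx libraries lay above both wt libraries. The mdx/Ripk3mKO libraries did not resemble each other: library 1 was as high as the lower mdx library and library 2 was the lowest of all 6. The difference of mdx from wt was 0.41 ± 0.20 (-0.17 to 0.98, limma, adjusted p = 0.826), the largest of the main members. When wt and mdx were fitted without the third group, the same difference had an SE of 0.07 and passed (limma, adjusted p = 0.0137), and it passed as well without mdx/Ripk3mKO library 1 (adjusted p = 0.0153) or 2 (adjusted p = 0.0128). Against mdx, mdx/Ripk3mKO stood at -0.35 ± 0.20 (adjusted p = 0.613). That value was -0.61 without library 1 of mdx/Ripk3mKO (limma, adjusted p = 0.00175) and -0.10 without library 2 (adjusted p = 0.76), so 1 library decides it. Against wt the value was 0.06 ± 0.20, and -0.20 without mdx/Ripk3mKO library 1.

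The sum of the mature fibre markers was highest and lowest in the same libraries as Pfkm and Hk2, but this did not hold for each marker. The summed scaled count of the 7 listed markers of 8 (Myh1, Myh2, Myh4, Myh7, Mb, Ckmt2 and Actn3, with Pvalb not listed) was 29213 and 31674 in wt libraries, 41843 and 42701 in mdx libraries and 36677 and 24823 in mdx/Ripk3mKO libraries. Mdx library 2 was highest and mdx/Ripk3mKO library 2 lowest for the marker sum, for Pfkm and for Hk2 alike. Most of the sum was Myh1 (11767 to 27921) and Actn3 (10686 to 12561). Myh1, Myh4, Mb and Ckmt2 shared that highest and lowest library, whereas Actn3 and Myh2 were highest in mdx/Ripk3mKO library 1 and Myh7 in mdx library 1. Of the pericyte markers, Pdgfrb had the same highest and lowest library, at 333 and 309 in wt, at 409 and 444 in mdx, and at 330 and 248 in mdx/Ripk3mKO. Creatine kinase (Ckm), the muscle enzyme that buffers ATP, lay at 1742 and 1754 in wt libraries, 2631 and 2452 in mdx libraries and 2357 and 1420 in mdx/Ripk3mKO libraries. It was highest in mdx library 1 and lowest in mdx/Ripk3mKO library 2. Of the 8 differentiating muscle markers, Ckm had the largest log2 difference of mdx from wt, at 0.54. The others lay at -0.10 (Myog) and from 0.01 (Mymx) to 0.25 (Myh3 and Tnnt3). The part of these markers in the Pfkm and Hk2 values was not tested, and in bulk RNA more cells of a type and more RNA per cell cannot be told apart. The muscle enolase Eno3 and Myog did not follow the order of the marker sum, with Eno3 highest in mdx/Ripk3mKO library 1 and lowest in wt library 2.

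**Figure D5:**
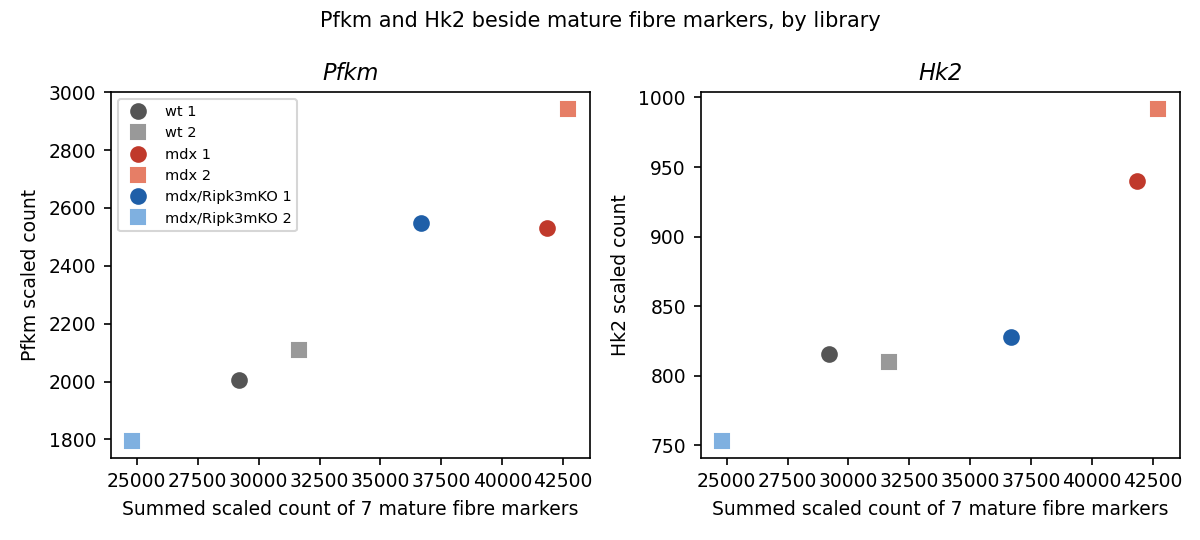
Scaled counts of Pfkm (left) and Hk2 (right) against the summed scaled count of 7 mature fibre markers, with 1 point per library. For both genes mdx library 2 is highest on both axes and mdx/Ripk3mKO library 2 lowest.

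The other subunits were steadier. Pfkl (ENSMUSG00000020277, chromosome 10, 77986947 to 78009807) was at 1271 and 1353 scaled counts in wt libraries, 1367 and 1325 in mdx libraries and 1424 and 1294 in mdx/Ripk3mKO libraries, and all groups overlapped. Its differences were 0.04 ± 0.07 for mdx against wt (-0.11 to 0.18), 0.01 ± 0.07 for mdx/Ripk3mKO against mdx (-0.13 to 0.16) and 0.05 ± 0.07 for mdx/Ripk3mKO against wt (-0.09 to 0.19). Pfkp (ENSMUSG00000021196, chromosome 13, 6579768 to 6648777) was at 1769 and 1890 in wt libraries, 1829 and 2035 in mdx libraries and 1864 and 1707 in mdx/Ripk3mKO libraries. Its groups also overlapped in every pair, and its differences were 0.08 ± 0.07, -0.11 ± 0.07 and -0.04 ± 0.07 in the same order. Leaving out 1 mdx library gave 0.00 to 0.15 for mdx against wt and -0.19 to -0.04 for mdx/Ripk3mKO against mdx. Pfkp shares 748 exon bases with Pitrm1 on the opposite strand, and the sources used here do not say whether reads were counted by strand. The ratio of Pfkm to the sum of Pfkl and Pfkp was 0.66 and 0.65 in wt libraries, 0.792 and 0.876 in mdx libraries and 0.774 and 0.598 in mdx/Ripk3mKO libraries. Its log2 value differed by 0.35 between mdx and wt (exact permutation p = 0.333, the smallest possible), while the exact permutation p over the 3 groups was 0.333.

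Aldoa, whose enzyme cleaves fructose 1,6-bisphosphate, was at 35826 and 34715 scaled counts in wt libraries, 36720 and 35756 in mdx libraries and 39656 and 34559 in mdx/Ripk3mKO libraries, and the groups overlapped. The mdx/Ripk3mKO libraries held both the highest and the lowest value. Its differences lay between 0.03 and 0.07 with SE 0.06 in the 3 comparisons. Ldha (ENSMUSG00000063229, chromosome 7, 46845839 to 46855627) was at 20029 and 20823 in wt libraries, 21103 and 21214 in mdx libraries and 22078 and 19706 in mdx/Ripk3mKO libraries. Its mdx libraries lay just above its wt libraries, and the mdx/Ripk3mKO libraries again held both the highest and the lowest value, with differences between -0.02 and 0.05 and SE 0.06. The 95% intervals of Ldha ran from -0.07 to 0.17 for mdx against wt and from -0.14 to 0.10 for mdx/Ripk3mKO against mdx. The identifier Aldoa ENSMUSG00000114515 was at 7 and 9 scaled counts in wt libraries, 10 and 14 in mdx libraries and 10 and 16 in mdx/Ripk3mKO libraries.

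Pkm (ENSMUSG00000032294, chromosome 9, 59656368 to 59679375), whose enzyme makes pyruvate and ATP, was at 55596 and 55756 scaled counts in wt libraries, 51159 and 52623 in mdx libraries and 59419 and 55922 in mdx/Ripk3mKO libraries. As for Hk1, the mdx libraries were the lowest and the mdx/Ripk3mKO libraries the highest, with no overlap between groups. Pkm differed by -0.10 ± 0.05 for mdx against wt (-0.20 to 0.00, limma, adjusted p = 0.768) and 0.15 ± 0.05 for mdx/Ripk3mKO against mdx (0.05 to 0.25, limma, adjusted p = 0.232). Over 14066 genes, which are not independent, the Spearman correlation of fold change with GC content was 0.32 in the latter comparison, and after correction for GC content and length its Pkm value was 0.09. Pkm shares 767 exon bases with Gm49759 on the same strand, where reads cannot be told apart. Pfkm likewise shares 341 exon bases with Gm26513 on the same strand, and Hk1 shares 157 with Hk1os on the opposite strand. Gm26513 and Hk1os were not listed.

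Of the enolases, Eno1 (ENSMUSG00000063524, chromosome 4, 150236952 to 150248879) was at 16650 and 15533 scaled counts in wt libraries, 15372 and 15156 in mdx libraries and 16630 and 17060 in mdx/Ripk3mKO libraries. The mdx libraries were below all others. The difference was -0.08 ± 0.05 for mdx against wt (limma, adjusted p = 0.838), -0.025 without wt library 1 and -0.125 without wt library 2, and 0.14 ± 0.05 for mdx/Ripk3mKO against mdx (0.04 to 0.25, limma, adjusted p = 0.289), with a corrected value for GC content and length of 0.09. Eno3 (ENSMUSG00000060600, chromosome 11, 70657202 to 70662513) was at 13418 and 12740 in wt libraries, 13190 and 12997 in mdx libraries and 14689 and 13753 in mdx/Ripk3mKO libraries. Both mdx/Ripk3mKO libraries lay above the other 4. Eno3 stood at 0.12 ± 0.05 against mdx (0.01 to 0.23, limma, adjusted p = 0.393) and at 0.12 ± 0.05 against wt (0.01 to 0.23, limma, unadjusted p = 0.0324, adjusted p = 1). After correction for GC content and length these Eno3 values were 0.07 and 0.08, and without mdx/Ripk3mKO library 1 both were 0.07. The ratio of Eno3 to Eno1 ranged from 0.806 to 0.883, and its log2 value differed by 0.08 between mdx and wt (exact permutation p = 0.333, the smallest possible) and by -0.02 between mdx/Ripk3mKO and mdx.

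Genes with the most similar pattern over the 6 libraries were taken from 10005 other genes with a mean of at least 100 scaled counts, by Pearson's r of log2 values, as a description. With so few libraries a high r is found for many genes. Hk2 was most like Islr (r = 0.998), Utrn (0.996), which encodes the dystrophin relative utrophin, and the collagen Col12a1 (0.987). Islr lay at 505 and 478 scaled counts in wt libraries, 709 and 840 in mdx libraries and 522 and 401 in mdx/Ripk3mKO libraries. Hk1 was most like Rdh13 (0.998), the Wnt receptor Fzd1 (0.995) and Ino80e (0.994). Pkm was most like Shroom2 (0.995), Spock2 (0.993) and Tmem177 (0.985). Among members r was 0.94 between Hk1 and Pkm, 0.90 between Hk2 and Pfkm, 0.90 between Pfkl and Ldha, and -0.67 between Hk1 and Hk2, over the same 6 libraries, which share their scaling.

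The remaining enzymes of glycolysis gave no call either. Of 25 further symbols 16 were in the table and all 16 were tested, with 0 called in each comparison. In mdx/Ripk3mKO against mdx 10 of the 16 lay above 0, with a median of 0.07, and 4 did not overlap, all higher, where 41.3% of all genes did not overlap in either direction. Gapdh, the dehydrogenase of the middle of the pathway, lay at 23335 and 22181 scaled counts in wt libraries, 21765 and 21362 in mdx libraries and 23688 and 24053 in mdx/Ripk3mKO libraries. Like Pkm and Eno1 it was lowest in mdx, at -0.08 ± 0.05 against wt (limma, adjusted p = 0.83), with 0.15 ± 0.05 for mdx/Ripk3mKO against mdx (limma, adjusted p = 0.245). Phosphoglycerate kinase Pgk1 was at 0.11 ± 0.05 and the mutase Pgam1 at 0.12 ± 0.07 in the latter comparison. Triose phosphate isomerase Tpi1 was at 0.11 ± 0.06 for mdx against wt. The brain isoforms Eno2 (13 to 34 scaled counts) and Aldoc (9 to 20) were scarce and had the smallest p for mdx/Ripk3mKO against wt, at 0.70 ± 0.37 and 0.66 ± 0.41, with Gapdh next at 0.07 ± 0.05.

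Among 16 tested genes that decide the fate of pyruvate 0 were called. Pdp1, the phosphatase that switches pyruvate dehydrogenase on, had the smallest p of this group, at 433 and 464 scaled counts in wt libraries, 636 and 599 in mdx libraries and 516 and 431 in mdx/Ripk3mKO libraries. Both mdx libraries lay above the others. It stood at 0.46 ± 0.09 for mdx against wt (limma, adjusted p = 0.261) and -0.39 ± 0.09 for mdx/Ripk3mKO against mdx (adjusted p = 0.121). When wt and mdx were fitted without the third group, Pdp1 (adjusted p = 0.0189) and the opposing kinase Pdk1 (0.46, adjusted p = 0.0199) passed, and without mdx/Ripk3mKO library 1 Pdp1, Pdk1 and Slc16a3 passed as lower in mdx/Ripk3mKO than in mdx (limma, adjusted p = 0.0179, 0.00166 and 0.0231). The lactate exporter Slc16a3 lay at 279 and 276 in wt libraries, 350 and 349 in mdx libraries and 330 and 232 in mdx/Ripk3mKO libraries, and the widespread carrier Slc16a1 at 3988 and 4199, 3645 and 3695, and 4035 and 3959. The carriers thus had opposite signs for mdx against wt, 0.33 ± 0.14 for Slc16a3 and -0.16 ± 0.05 for Slc16a1. For mdx/Ripk3mKO against wt the smallest p were those of Bsg (0.12 ± 0.06), the chaperone of these carriers, Mpc1 (-0.41 ± 0.21), part of the mitochondrial pyruvate carrier, and Pdk2 (0.15 ± 0.11).

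Side branches of the pathway, in 15 tested genes, held 0 calls. Pyruvate carboxylase Pcx stood at 0.31 ± 0.10 for mdx against wt (limma, adjusted p = 0.586), with Pgls (-0.15 ± 0.08) and Pck2 (-0.09 ± 0.06) next. Pgls, an enzyme of the pentose phosphate pathway, was at 0.25 ± 0.08 and the serine synthesis enzyme Phgdh at 0.16 ± 0.06 for mdx/Ripk3mKO against mdx, with Pcx at -0.18 ± 0.10. Against wt, Phgdh and Pgd were at 0.09 ± 0.06 and Pcx at 0.13 ± 0.10. Of 15 tested regulators 0 were called. Hif1a, the hypoxia factor that induces many glycolytic genes, lay at 4746 to 4867 scaled counts in all libraries, with a difference of 0.02 ± 0.05 for mdx against wt, and Myc lay at 1762 to 2036. Prkaa2, a catalytic subunit of AMP-activated kinase, had the smallest p, at 769 and 847 in wt libraries, 1038 and 1043 in mdx libraries and 897 and 668 in mdx/Ripk3mKO libraries (0.37 ± 0.13 for mdx against wt, limma, adjusted p = 0.668, and -0.43 ± 0.13 for mdx/Ripk3mKO against mdx, adjusted p = 0.265). It passed when wt and mdx were fitted without the third group (limma, adjusted p = 0.0291), and without mdx/Ripk3mKO library 1 it passed with Ppargc1a as lower in mdx/Ripk3mKO (adjusted p = 0.00144 and 0.00456). Further small p among regulators were those of Mxi1 (0.22 ± 0.11) and Trp53 (-0.11 ± 0.06) for mdx against wt, Trp53 (0.15 ± 0.06) and Ppargc1a (-0.56 ± 0.20) for mdx/Ripk3mKO against mdx, and Esrra (0.16 ± 0.08), Egln1 (-0.10 ± 0.08) and Myc (-0.08 ± 0.07) for mdx/Ripk3mKO against wt.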

How the data were processed

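RNA of 6 libraries was turned into stranded libraries with the Takara SMARTer pico chemistry (version 2), per the labels. The deposited values are scores: gene counts that were already scaled and rounded by the authors, as read from near-equal size factors (1.0019 to 1.00229) and skipped or doubled whole numbers. DESeq2 1.18.1, featureCounts 1.6.3, STAR 2.6.1d, Trimmomatic 0.36 and mm10 appear in the submitters' processing notes without roles. Both mdx columns carry the same header and were called library 1 and 2 in column order. Limma 3.58.1 in R 4.3.3 was fitted to log2(scaled count + 1) over all 6 libraries with genotype as the only term, a variance trend and robust moderation (statmod 1.5.0), leaving 3 residual degrees of freedom. A gene was tested where 2 or more libraries held 10 or more (14077 of 14515). Fold changes understate low genes. Errors are moderated SE unless SD is written. Lengths, GC content and overlaps come from GENCODE M21, which held 14502 of 14515 identifiers. Exact permutation tests over libraries served the isoform ratios. Members, lists and tests were chosen with earlier results of these data known. Named besides the members were the 3 genes with the smallest p per list and comparison, and the 3 genes most like Hk1, Hk2 and Pkm. Other genes are named after their values were seen. No correction was made for library depth, which the scaling hides.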

Additional observations from a re-analysis of the deposited data

How the results depend on the processing

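Alternatives were a pseudocount of 5, no filter, no variance trend or robust fitting, quantile normalization, equal library totals, correction for GC content and length, only the 4 libraries compared, and leaving out each library. Counts over all genes were unstable: for mdx against wt 1 gene was called, 103 with only the 4 libraries, and 0 to 103 leaving out 1 library. For mdx/Ripk3mKO against mdx 29 were called, 14 after GC content and length correction, 1 without trend or robust fitting, 2 with only the 4 libraries, and 1 to 278 leaving out 1 library. For mdx/Ripk3mKO against wt 0 were called (limma, 468 at an unadjusted p under 0.05), and 0 to 20 leaving out 1 library. The F-test called 11, 5 after GC content and length correction, 1 without trend or robust fitting, and 1 to 203 leaving out 1 library. Members called numbered 0 in each comparison. For mdx against wt this became 1 (Pfkm) with only the 4 libraries compared and 0 to 1 leaving out 1 library, and for mdx/Ripk3mKO against mdx 0 to 2 (Hk2, Pfkm) leaving out 1 library. The cause was not tested.

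Every sign change concerned an uncalled value. For mdx against wt the sign turned for Aldoa (0.039 as reported) at -0.004 with quantile normalization, Eno3 (0.002 as reported) at -0.004 with equal library totals and -0.013 with quantile normalization and -0.035 to 0.039 leaving out 1 library, Pfkl (0.037 as reported) at -0.008 to 0.082 leaving out 1 library. For mdx/Ripk3mKO against mdx the sign turned for the log2 ratio Eno3 to Eno1 (-0.024 as reported) at -0.090 to 0.042 leaving out 1 library, Aldoa (0.031 as reported) at -0.050 with GC content and length correction and -0.068 to 0.130 leaving out 1 library, Aldoa ENSMUSG00000114515 (0.090 as reported) at -0.224 to 0.404 leaving out 1 library, Ldha (-0.021 as reported) at -0.103 to 0.061 leaving out 1 library, Pfkl (0.012 as reported) at -0.059 with GC content and length correction and -0.057 to 0.081 leaving out 1 library. For mdx/Ripk3mKO against wt the sign turned for the log2 ratio Eno3 to Eno1 (0.054 as reported) at -0.012 to 0.120 leaving out 1 library, the log2 ratio Pfkm to Pfkl plus Pfkp (0.055 as reported) at -0.132 to 0.242 leaving out 1 library, Aldoa (0.070 as reported) at -0.029 to 0.169 leaving out 1 library, Hk2 (-0.042 as reported) at -0.110 to 0.026 leaving out 1 library, Ldha (0.030 as reported) at -0.051 to 0.112 leaving out 1 library, Pfkl (0.050 as reported) at -0.019 to 0.119 leaving out 1 library, Pfkm (0.056 as reported) at -0.197 to 0.309 leaving out 1 library, Pfkp (-0.036 as reported) at -0.099 to 0.028 leaving out 1 library. Replicate numbers are shared by wt and mdx/Ripk3mKO only, and deviations of same-numbered libraries had a correlation of 0.009, so the numbers are not taken as pairs. With the replicate number as a block 0 genes and 0 members were called for mdx/Ripk3mKO against wt, as without it. For mdx no paired analysis was possible because both columns carry one header. Scarce genes such as Eno2 and Aldoc are limited by counting error, and 2 libraries a group limit every comparison.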
